A study of Homo sapiens with 16 samples.

Results

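The genes described here are 31 genes of cholesterol synthesis, sterol transport and SREBP control, chosen by gene symbol from a deposited table of 58051 human gene identifiers. All 31 were found and all 31 passed the filter on low values (a mean normalized count of at least 10), with between 67 and 7016 reads per gene and library. RNA was sequenced from P493-6, a single immortalised line of human B cells whose MYC transgene can be switched down with doxycycline, and in which the viral factor EBNA2 is active only with oestrogen. There were 4 groups of 4 libraries. High MYC cells stayed in plain DMEM with serum, and medium MYC cells were given 0.1 µg/mL doxycycline and 1 µM beta-estradiol from 24 h before treatment, so that MYC level, doxycycline and estradiol cannot be told apart. IMP1088 at 100 nM, or DMSO as control, was then added for 24 h at each MYC level. IMP1088 blocks NMT1 and NMT2, the enzymes that add a myristoyl lipid to the start of many proteins. The labels do not say whether replicates came from separate cultures, so p-values measure the spread between these libraries, which may be technical.

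Cells make cholesterol from acetyl-CoA. The early, mevalonate part of the pathway yields isoprenoids, which are also used to build dolichol, ubiquinone and protein prenyl groups, and the sterol branch turns farnesyl diphosphate into squalene, lanosterol and finally cholesterol. Transcription of these enzymes is driven by the SREBP factors, encoded by SREBF1 and SREBF2, which are held in the endoplasmic reticulum by SCAP and the INSIG proteins when sterols are plentiful and are released for cleavage in the Golgi when sterols run low. Oxysterols in turn activate the LXR receptors, which raise sterol efflux genes such as ABCA1 and ABCG1 and the ubiquitin ligase MYLIP. Growing lymphocytes are known to depend on this pathway for new membrane.

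Library depth lay between 8755296 and 13858534 reads, and no molecular identifiers are named in the labels, so reads are not separate molecules. In bulk RNA fewer cells of a kind and less RNA per cell cannot be told apart. Values are normalized counts, the authors' gene counts divided by a size factor for each library. MYC, whose level defined the groups, stood at 31650 ± 2130 (SD, n = 4) in high MYC controls and at 958.6 ± 48.7 (SD, n = 4) in medium MYC controls. With the inhibitor MYC was at 47540 ± 504.9 (SD, n = 4) at high MYC and at 1382 ± 51.2 (SD, n = 4) at medium MYC. These were rises of 0.59 (limma adjusted p 7.24e-10) and 0.53 (limma adjusted p 2.74e-09) on the log2 scale. The part of this MYC rise in the responses to the inhibitor was not tested. The B cell markers CD79A, MS4A1 and PAX5 were detected in every library, at normalized counts of 2527 to 3266, 9101 to 23087 and 4228 to 6790. The summed T cell, myeloid and epithelial markers did not exceed 95.4, 83.4 and 86.3, DCN and KRT18 were at 0 in every library, and the fibroblast list, almost all of it COL1A1, lay between 4.44 and 19.4 at high MYC and between 156 and 221 at medium MYC. MS4A1 also moved, from at most 11899 at high MYC to at least 19307 at medium MYC, and the part of either in the results was not tested. Exons of 16 of the 31 genes overlap those of another gene in GENCODE release 29, 15 of them on the opposite strand. Whether counting used strand is not given in the sources used here, so reads of such pairs may not be separable. Exons of GGPS1, CYP51A1 and TM7SF2 overlap those of a gene on the same strand, which counting by strand would not separate. Pseudogenes named after FDPS, CYP51A1, HSD17B7 and TMEM97 are annotated, and values of these genes are reported as uncertain because reads can be split among near-identical copies.

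The promoters of 5 genes are printed to show the control regions of a regulator, of 3 enzymes that fell with the inhibitor and of ABCA1, which rose. The windows run from 250 bases before to 50 bases after an annotated start, 5′ to 3′ in the direction of the gene, from RefSeq on GRCh38.p14. Capitals mark every match on either strand to a sterol regulatory element written TCACNCCAC, to the NF-Y box CCAAT. They also mark the E-box CACGTG, a site class known to be bound by MYC and by SREBP proteins.
SREBF2 (chr22:41832855-41833154, plus strand): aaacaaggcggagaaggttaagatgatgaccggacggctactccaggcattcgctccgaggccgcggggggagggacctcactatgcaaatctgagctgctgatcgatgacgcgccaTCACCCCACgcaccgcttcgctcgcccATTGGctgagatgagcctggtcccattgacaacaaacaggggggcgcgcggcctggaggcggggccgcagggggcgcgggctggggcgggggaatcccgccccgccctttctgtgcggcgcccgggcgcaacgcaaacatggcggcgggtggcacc
HMGCS1 (chr5:43313363-43313662, minus strand): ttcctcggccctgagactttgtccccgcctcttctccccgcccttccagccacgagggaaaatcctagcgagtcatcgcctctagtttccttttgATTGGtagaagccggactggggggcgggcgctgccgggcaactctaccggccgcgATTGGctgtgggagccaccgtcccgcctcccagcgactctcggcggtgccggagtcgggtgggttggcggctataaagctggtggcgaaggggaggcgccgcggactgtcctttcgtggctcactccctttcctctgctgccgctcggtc
MVD (chr16:88663042-88663341, minus strand): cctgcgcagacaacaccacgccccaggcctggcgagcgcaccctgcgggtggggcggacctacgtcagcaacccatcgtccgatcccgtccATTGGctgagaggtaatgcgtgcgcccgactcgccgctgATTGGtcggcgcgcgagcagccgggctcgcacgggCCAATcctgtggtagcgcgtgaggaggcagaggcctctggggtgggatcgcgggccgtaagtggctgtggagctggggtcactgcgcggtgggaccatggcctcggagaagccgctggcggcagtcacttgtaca
MSMO1 (chr4:165327419-165327718, plus strand): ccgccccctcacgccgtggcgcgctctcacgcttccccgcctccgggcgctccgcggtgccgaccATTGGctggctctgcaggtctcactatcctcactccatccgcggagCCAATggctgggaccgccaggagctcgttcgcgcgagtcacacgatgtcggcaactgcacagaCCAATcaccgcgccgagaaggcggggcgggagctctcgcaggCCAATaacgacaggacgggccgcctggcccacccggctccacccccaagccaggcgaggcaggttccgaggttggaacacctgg
ABCA1 (chr9:104928106-104928405, minus strand): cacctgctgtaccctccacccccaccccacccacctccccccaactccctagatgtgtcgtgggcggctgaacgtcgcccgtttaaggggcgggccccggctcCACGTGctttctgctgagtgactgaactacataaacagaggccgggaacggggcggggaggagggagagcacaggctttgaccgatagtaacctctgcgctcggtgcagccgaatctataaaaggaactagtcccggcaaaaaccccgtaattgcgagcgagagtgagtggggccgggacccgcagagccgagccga
The SREBF2 window holds the sterol element at -133 and an NF-Y box at -106, counted from the annotated start as 0. HMGCS1 has 2 NF-Y boxes in the window printed and 0 in the window of its other annotated start, MVD has 3 and MSMO1 has 4, whereas ABCA1 has none and carries an E-box at -147.

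RefSeq windows matched 27 of the 31 genes by symbol, and ABCG1, ACAT2, FDFT1 and SQLE had no entry. An NF-Y box lay in a window of 19 of the 27 genes (70.4%), against 39.8% of all 27167 genes in the table, noncoding ones included. The GC-box GGGCGG, searched in the same way, was present for 26 of 27 (96.3%) against 48.2%. The E-box was found for 5 of 27 (18.5% against 8.74%) and the sterol element for 1 of 27 (3.70% against 1.38%). A repeat element for the LXR receptors (DR4) was also searched and was found for 0 of 27 (0% against 0.0258%), ABCA1 included. Only exact letters were searched for each motif, and 2 pairs of NF-Y boxes on opposite strands overlapped. An LXR element with other letters would be missed, so whether the ABCA1 window holds one was not tested. Genes with and without an NF-Y box were found among those that fell: CYP51A1 and PMVK, which fell at medium MYC, had none in their windows, and STARD4, which did not pass the test, had 2.

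With the inhibitor most enzymes of the pathway fell, 14 of 19 at high MYC and 18 of 19 at medium MYC. Of the 31 genes, 17 fell and 1 rose at high MYC, and 24 fell and 1 rose at medium MYC. A gene was called at a limma adjusted p-value under 0.05 over all 13765 genes tested. Among all tested genes 16.3% were called lower and 10.5% higher at high MYC (26.8% in all), and 14.6% lower and 11.7% higher at medium MYC (26.3% in all). The median log2 change of the 31 genes was -0.18 at high MYC and -0.39 at medium MYC, where all tested genes had -0.02 and -0.01. All 17 genes that fell at high MYC also fell at medium MYC, and 8.38% of all tested genes were called lower at both. Inhibitor and control libraries were free of overlap, with the inhibitor lower, for 17 genes at high MYC and 23 at medium MYC, against 15.8% and 15.4% of all genes. They were free of overlap with the inhibitor higher for ABCA1 alone at each level, against 10.9% and 12.4%.

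**Figure D1:**
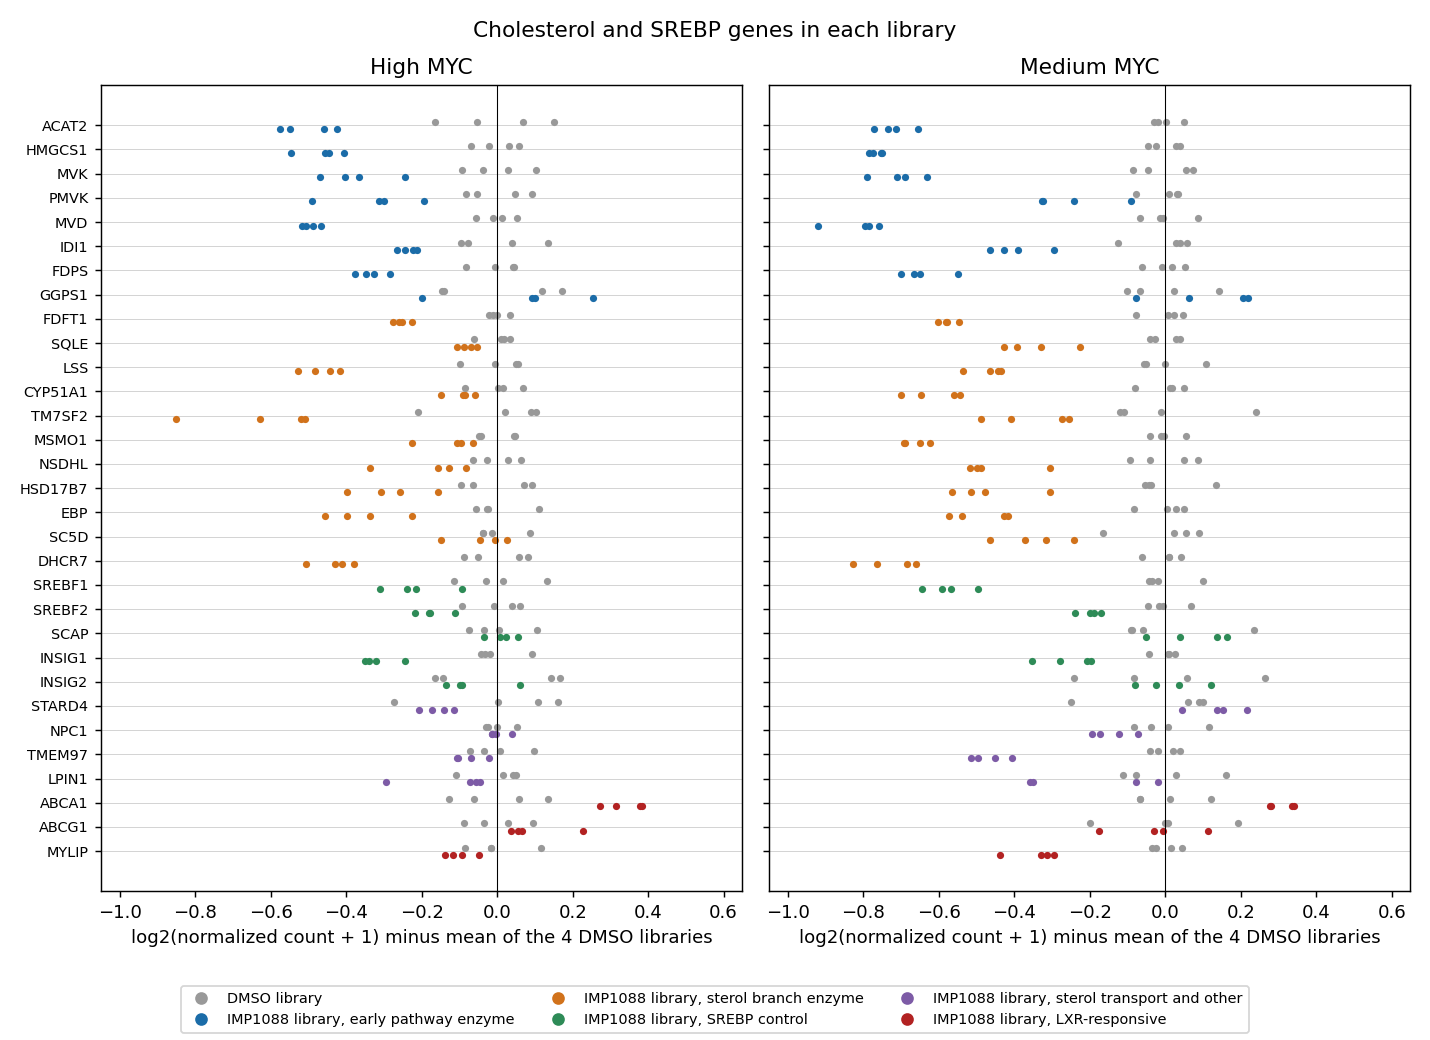
Each point is a library: log2(normalized count + 1) of each gene minus the mean of the 4 DMSO libraries at the same MYC level, with DMSO libraries in grey and IMP1088 libraries coloured by role. Most enzyme points lie left of 0 at both MYC levels and lie further left at medium MYC, while the 4 ABCA1 points with IMP1088 lie right of every DMSO point.

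Among the 19 enzymes, 14 fell and 5 did not pass the test at high MYC, and 18 fell and 1 did not pass at medium MYC, with median log2 changes of -0.32 and -0.49. The mean log2 difference of the 19 enzymes from the control mean lay between -0.33 and -0.27 in the inhibitor libraries at high MYC and between -0.53 and -0.50 at medium MYC. Control libraries lay between -0.03 and 0.05. No inhibitor library came near a control library on this summary, which rests on genes chosen with earlier results known and is given without a test.

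Among the 8 enzymes up to the isoprenoids, 7 fell at both levels. HMGCS1 (ENSG00000112972, chromosome 5, 43289395 to 43313512 on GRCh38) condenses acetyl groups into HMG-CoA. Its normalized counts at high MYC were 5084, 5553, 5451 and 5255 in controls and 3912, 4022, 3885 and 3650 with the inhibitor. At medium MYC HMGCS1 was at 2553, 2649, 2515 and 2666 in controls and at 1506, 1538, 1542 and 1517 with the inhibitor. The 4 groups did not overlap, with the high MYC controls highest and the medium MYC inhibitor libraries lowest. HMGCS1 fell by 0.46 on the log2 scale (SE 0.03, limma adjusted p 1.13e-09) at high MYC and by 0.77 (SE 0.03, limma adjusted p 2.15e-13) at medium MYC.

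MVD, the decarboxylase that yields isopentenyl diphosphate, had the deepest fall of the list at medium MYC. MVD (chromosome 16, 88651935 to 88663161) was at 618, 588, 607 and 635 in high MYC controls and at 442, 427, 430 and 436 with the inhibitor. At medium MYC MVD went from 659, 684, 734 and 689 to 408, 397, 364 and 400. Every inhibitor library was below every control library at either level, and the falls were 0.50 and 0.82 on the log2 scale (SE 0.05 for both, limma adjusted p 4.98e-08 and 1.52e-11). ACAT2, which joins acetyl-CoA units, fell by 0.50 and 0.72, and the mevalonate kinase MVK by 0.37 and 0.71. FDPS, which makes farnesyl diphosphate, fell by 0.33 and 0.64, and the isomerase IDI1 by 0.24 and 0.39. PMVK, the phosphomevalonate kinase, fell by 0.32 at high MYC and by 0.24 at medium MYC. GGPS1, which diverts farnesyl diphosphate to geranylgeranyl diphosphate, was the exception, with changes of 0.06 (95% interval -0.15 to 0.27) and 0.10 (95% interval -0.11 to 0.32) that did not pass the test (limma adjusted p 0.712 and 0.506).

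In the sterol branch 7 of 11 enzymes fell at high MYC and all 11 at medium MYC. LSS, which closes squalene epoxide into lanosterol, fell by nearly the same log2 change at both levels. LSS (chromosome 21, 46188141 to 46228824) went from 2540, 2531, 2281 and 2434 to 1696, 1749, 1832 and 1799 at high MYC and from 3085, 3095, 3459 and 3206 to 2212, 2325, 2357 and 2370 at medium MYC. Controls and inhibitor libraries did not overlap, and the falls were 0.47 at either level (SE 0.04, limma adjusted p 1.91e-08 and 1.36e-08). DHCR7, which completes one route to cholesterol, fell by 0.43 and 0.73, EBP by 0.35 and 0.49, HSD17B7 by 0.28 and 0.47 and FDFT1, the squalene synthase, by 0.25 and 0.58. TM7SF2, a sterol reductase with 113 to 140 normalized counts in high MYC controls and 72.0 to 91.6 with the inhibitor, had the deepest fall of the list at high MYC, 0.63 on the log2 scale (SE 0.10, limma adjusted p 1.05e-04). Its fall at medium MYC was 0.36 (limma adjusted p 0.0139) and lost the call without the third medium MYC control library (-0.28, limma adjusted p 0.0652). TM7SF2 also shares exons with VPS51.

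CYP51A1, SQLE, SC5D and NSDHL passed the test at medium MYC and not at high MYC. CYP51A1, the lanosterol demethylase (chromosome 7, 92112151 to 92134803), was at 2318, 2577, 2484 and 2462 in high MYC controls and at 2307, 2317, 2362 and 2217 with the inhibitor. At medium MYC CYP51A1 was at 1864, 1915, 1751 and 1872 in controls and at 1181, 1268, 1255 and 1137 with the inhibitor. The groups overlapped at high MYC, where the change of -0.10 (SE 0.04) did not pass the test (limma adjusted p 0.0813; 0.0289 without the first control library), and were far apart at medium MYC, where CYP51A1 fell by 0.61 (SE 0.04, limma adjusted p 1.62e-10). MSMO1, a sterol methyl oxidase that acts after CYP51A1, was at 1295, 1379, 1292 and 1378 in high MYC controls and at 1278, 1249, 1241 and 1141 with the inhibitor, and at medium MYC it went from 1334, 1340, 1307 and 1396 to 856, 872, 832 and 831. Its fall at medium MYC was 0.66 (SE 0.04, limma adjusted p 2.53e-11). At high MYC it was 0.12 (limma adjusted p 0.0212), and that call was lost with equal library totals (0.0630), with quantile normalization (0.125), with the compared groups alone (0.0525) and without control library 2 or 4 or inhibitor library 4, where the limma adjusted p ran up to 0.0941.

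SQLE, the squalene epoxidase, showed the same order, with a change of -0.08 (limma adjusted p 0.122) at high MYC and a fall of 0.34 (limma adjusted p 3.15e-07) at medium MYC. SC5D, the sterol desaturase, had -0.04 (limma adjusted p 0.651) and fell by 0.35 (limma adjusted p 1.26e-04). NSDHL, which works with MSMO1 in removing methyl groups, had -0.18 at high MYC (limma adjusted p 0.0544) and fell by 0.45 at medium MYC. The difference between levels for NSDHL, 0.28, did not pass (95% interval 0.08 to 0.47, limma adjusted p 0.0749), and was called with quantile normalization (0.0456) and without inhibitor library 4 at high MYC (0.0264) or 2 at medium MYC (0.0334). For NSDHL all inhibitor libraries at high MYC were below all controls although the test was not passed.

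Differences between the 2 MYC levels were tested directly, as the response at high minus that at medium MYC. They passed for 13 of the 31 genes, all with a positive sign, where 8.63% of all tested genes were called, 3.31% with a positive and 5.33% with a negative difference. In each of the 13, the gene fell at medium MYC and fell less, or did not pass the test, at high MYC. The largest were MSMO1 with 0.54 (SE 0.05, limma adjusted p 7.27e-07) and CYP51A1 with 0.52 (SE 0.06, limma adjusted p 2.18e-06). TMEM97 followed with 0.39 and SREBF1 with 0.36. HMGCS1, MVK, MVD, FDPS, FDFT1, SC5D and DHCR7 lay between 0.30 and 0.33, SQLE had 0.26 and MYLIP 0.25. SC5D lost its call when any of 6 libraries was left out (limma adjusted p up to 0.0616) and without the mean trend (0.0537), and MYLIP lost its call in DESeq2 (0.0745) and when any of 5 libraries was left out (up to 0.0652).

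The difference did not pass for LSS, at 0.00 (95% interval -0.12 to 0.12), for INSIG1, at -0.05 (-0.17 to 0.06), or for SREBF2, at 0.03 (-0.07 to 0.13). TM7SF2 had -0.27 (SE 0.15, limma adjusted p 0.309) and PMVK -0.08 (limma adjusted p 0.724). Over the 31 genes, the response at high MYC and that at medium MYC had a Pearson correlation of 0.716 and a Spearman correlation of 0.709. Over the 19 enzymes these were 0.532 and 0.554, and over all 13765 genes 0.402 and 0.50. The 2 responses were measured in separate libraries, genes are not independent replicates, and these values are given as a description only.

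**Figure D2:**
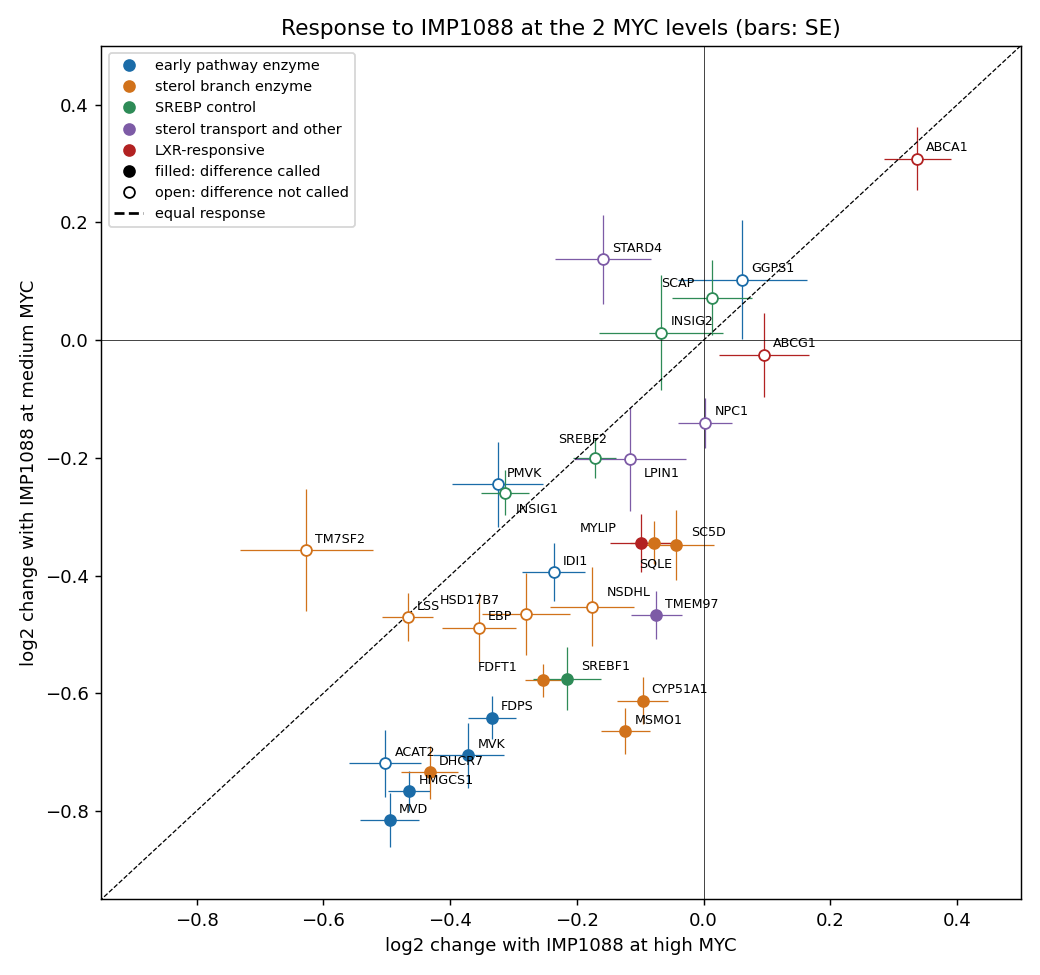
Log2 change with IMP1088 at high MYC (horizontal) against medium MYC (vertical) for the 31 genes, with bars for the standard error, colours for roles and filled points where the difference between levels was called. All 13 filled points lie below the line of equal response, led by MSMO1 and CYP51A1, while LSS lies on it and ABCA1 is alone at the upper right.

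Of the 5 genes that control the pathway, SREBF1, SREBF2 and INSIG1 fell at both levels, and SCAP and INSIG2 did not pass the test at either. SREBF1 (chromosome 17, 17810399 to 17837002) encodes the SREBP-1 proteins, linked above all to fatty acid synthesis. It was at 1298, 1161, 1094 and 1197 in high MYC controls and at 955, 1004, 1020 and 1110 with the inhibitor, which overlap in 1 library. At medium MYC SREBF1 went from 785, 777, 853 and 773 to 537, 564, 528 and 509 with no overlap. The falls were 0.22 (SE 0.05, limma adjusted p 0.00429) and 0.58 (SE 0.05, limma adjusted p 3.86e-08). SREBF2 (chromosome 22, 41833079 to 41907308) encodes SREBP-2, the main driver of cholesterol synthesis genes, and fell by 0.17 (SE 0.03, limma adjusted p 6.58e-04) and 0.20 (SE 0.03, limma adjusted p 1.26e-04).

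INSIG1, an anchor of the SCAP-SREBP complex that is itself a target of SREBP, was at 2187, 2402, 2200 and 2223 in high MYC controls and at 1899, 1801, 1780 and 1766 with the inhibitor. At medium MYC INSIG1 went from 2903, 2908, 2805 and 2941 to 2260, 2502, 2379 and 2522. Groups were separate at either level, and the falls were 0.31 (SE 0.04, limma adjusted p 1.95e-06) and 0.26 (SE 0.04, limma adjusted p 2.00e-05). Its paralogue INSIG2 stayed between 179 and 255 normalized counts in all 16 libraries, and its changes were -0.07 (95% interval -0.27 to 0.14) and 0.01 (-0.19 to 0.22). SCAP, the escort of SREBP, had changes of 0.01 (-0.12 to 0.15) and 0.07 (-0.06 to 0.20). Without the third medium MYC control library, where SCAP was at 626 against 498 to 510 in the others, SCAP was called higher with the inhibitor at medium MYC (0.15, limma adjusted p 0.0332).

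Of the 3 LXR-responsive genes, ABCA1 rose at both MYC levels, MYLIP fell at medium MYC and did not pass the test at high MYC, and ABCG1 did not pass the test at either level. ABCA1 (chromosome 9, 104781002 to 104928237) exports cholesterol to lipid-poor apolipoproteins. It was at 846, 962, 1015 and 886 in high MYC controls and at 1203, 1208, 1117 and 1151 with the inhibitor, and at 584, 541, 512 and 512 in medium MYC controls against 651, 678, 680 and 650. Inhibitor libraries were above all controls at both levels. ABCA1 rose by 0.34 (SE 0.05, limma adjusted p 5.51e-05) and 0.31 (SE 0.05, limma adjusted p 1.31e-04), and the difference between levels was 0.03 (95% interval -0.13 to 0.19).

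ABCG1, which hands cholesterol to lipoprotein particles, had changes of 0.10 (95% interval -0.05 to 0.24) and -0.02 (-0.17 to 0.12). MYLIP, which lowers lipoprotein uptake, was at 509, 558, 509 and 485 in high MYC controls and at 498, 475, 468 and 482 with the inhibitor, and went from 496, 506, 479 and 482 to 390, 399, 361 and 394 at medium MYC. Its change was -0.10 (limma adjusted p 0.147) at high MYC, where the groups overlapped, and it fell by 0.34 (SE 0.05, limma adjusted p 1.41e-05) at medium MYC, where they did not.

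Sterol transport and other SREBP-linked genes gave mixed results. TMEM97, a sterol-responsive membrane protein, was at 1388 to 1477 in 2 and at 1312 to 1348 in the other high MYC controls and at 1282 to 1360 with the inhibitor, with a change of -0.07 (limma adjusted p 0.187). At medium MYC it went from 645, 628, 654 and 619 to 445, 451, 479 and 465, a fall of 0.47 (SE 0.04, limma adjusted p 1.42e-08). NPC1, which moves cholesterol out of lysosomes, fell by 0.14 (limma adjusted p 0.0172) at medium MYC, where the groups overlapped. That call was lost under quantile normalization (0.0685) and without the third control library (0.0728) or the fourth inhibitor library (0.0602). At high MYC NPC1 had a change of 0.00 (95% interval -0.09 to 0.09). LPIN1, a phosphatidate phosphatase, had -0.12 and -0.20 (limma adjusted p 0.365 and 0.101).

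STARD4, a cytosolic sterol carrier, did not pass the test at either level, and its changes had opposite signs. With the inhibitor STARD4 was at 923, 905, 885 and 865 at high MYC against 826, 1000, 1117 and 1076 in controls, and at 6239, 5909, 5539 and 5973 at medium MYC against 5712, 5603, 4521 and 5758. Both pairs of groups overlapped, and the changes were -0.16 (limma adjusted p 0.133) and 0.14 (limma adjusted p 0.201). The result rested on single libraries: without the first high MYC control STARD4 was called lower at high MYC (-0.25, limma adjusted p 0.00611) and its difference between levels was called (-0.39, limma adjusted p 0.00552). STARD4-AS1 lies on the opposite strand over its exons.

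Between the MYC levels the genes moved in both directions. Among controls 11 of the 31 genes were higher and 11 lower at medium than at high MYC, where 38.9% of all tested genes were called higher and 37.3% lower (76.2% in all), so these shares are near the background. With the inhibitor 8 were higher and 19 lower, against 39.7% and 37.8% of all tested genes (77.5% in all). Libraries of the 2 levels were free of overlap for 10 higher and 12 lower genes among controls (35.6% and 33.6% of all genes), and for 8 and 18 with the inhibitor (37.2% and 35.4%). These 2 comparisons share no library, and across the 31 genes their log2 changes had a Pearson correlation of 0.972, against 0.957 over all 13765 genes, given as a description.

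**Figure D3:**
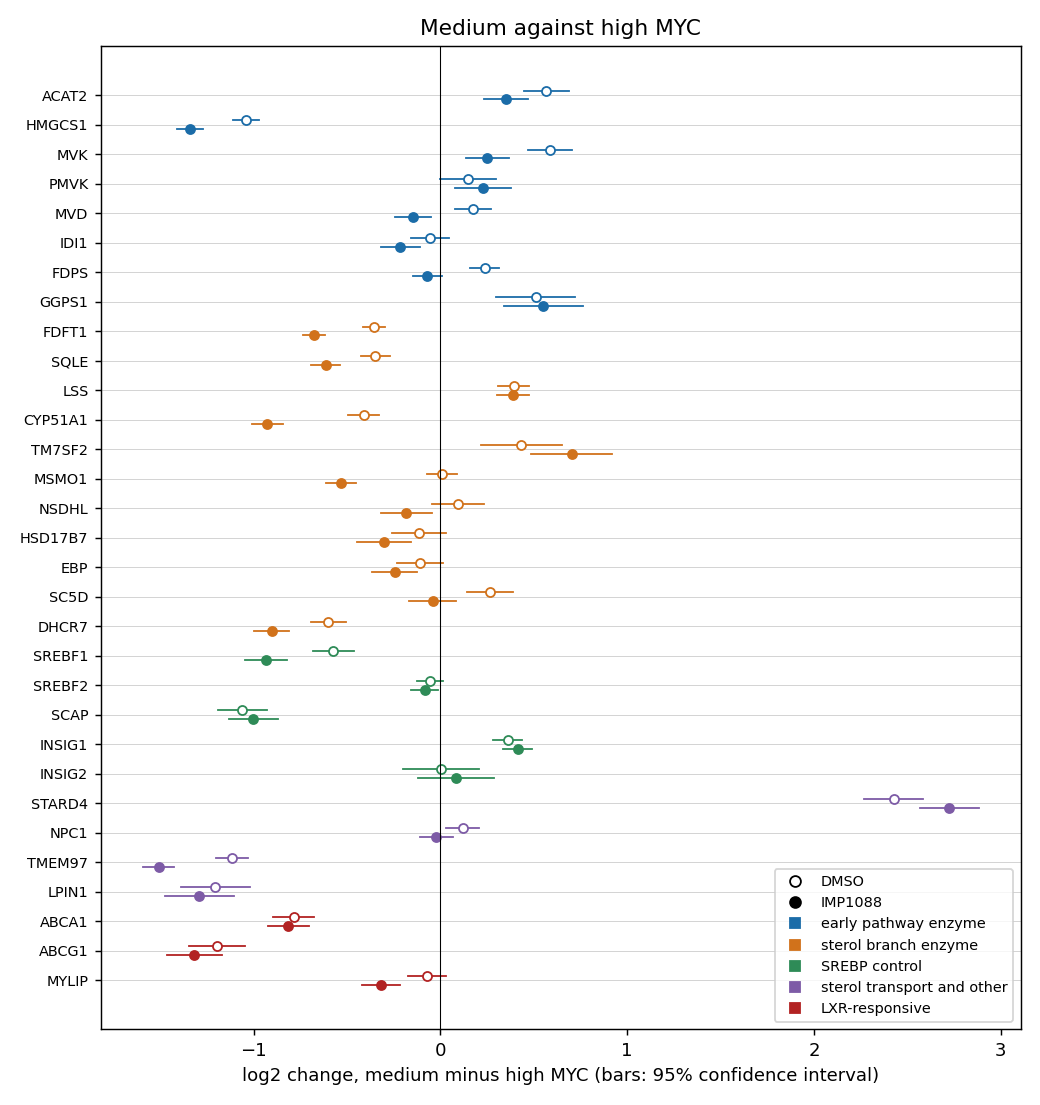
Log2 change from high to medium MYC for each gene, with open points for DMSO and filled points for IMP1088 and bars for 95% confidence intervals. STARD4 stands alone at the right, HMGCS1, SCAP, TMEM97, LPIN1 and ABCG1 lie at or left of -1 in both, and filled points lie left of open points for most enzymes.

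STARD4 had the largest difference. It ran from 826 to 1117 in high MYC controls and from 4521 to 5758 in medium MYC controls, a 5.38-fold rise (log2 change 2.43, SE 0.08, limma adjusted p 1.45e-17), and from 865 to 923 and from 5539 to 6239 with the inhibitor, a 6.60-fold rise. ABCG1 was at 772 to 877 in high MYC controls and 312 to 409 in medium MYC controls and was lower with a fold ratio of 0.436 (log2 SE 0.07, limma adjusted p 1.29e-12). LPIN1 had a fold ratio of 0.434, TMEM97 of 0.461, SCAP of 0.480 and HMGCS1 of 0.487 to high MYC controls. ABCA1 was lower with a log2 change of -0.79. In STARD4 and in these 6 genes the 2 MYC levels did not overlap in controls or with the inhibitor, and their directions were the same in both.

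Enzymes did not move together between MYC levels. Among controls ACAT2, MVK, MVD, FDPS and GGPS1 of the early pathway were higher at medium MYC by 0.57, 0.59, 0.18, 0.24 and 0.51, while HMGCS1 was lower. In the sterol branch LSS, TM7SF2 and SC5D were higher by 0.39, 0.43 and 0.26, and DHCR7, CYP51A1, FDFT1 and SQLE were lower, with log2 changes of -0.60, -0.41, -0.35 and -0.35. INSIG1 was higher by 0.36 and SREBF1 lower, with -0.57, whereas SREBF2 (-0.06, 95% interval -0.13 to 0.02) and INSIG2 (0.00, -0.20 to 0.21) did not pass the test. With the inhibitor MVD changed sides: it was lower at medium MYC, with -0.14 (limma adjusted p 0.00699), after being higher among controls (limma adjusted p 0.00164), and the test of that difference is the one given above for the response (limma adjusted p 0.00254). MSMO1, at 0.01 among controls (limma adjusted p 0.839), was lower at medium MYC with the inhibitor, at -0.53 (SE 0.04, limma adjusted p 3.59e-11).

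**Figure D4:**
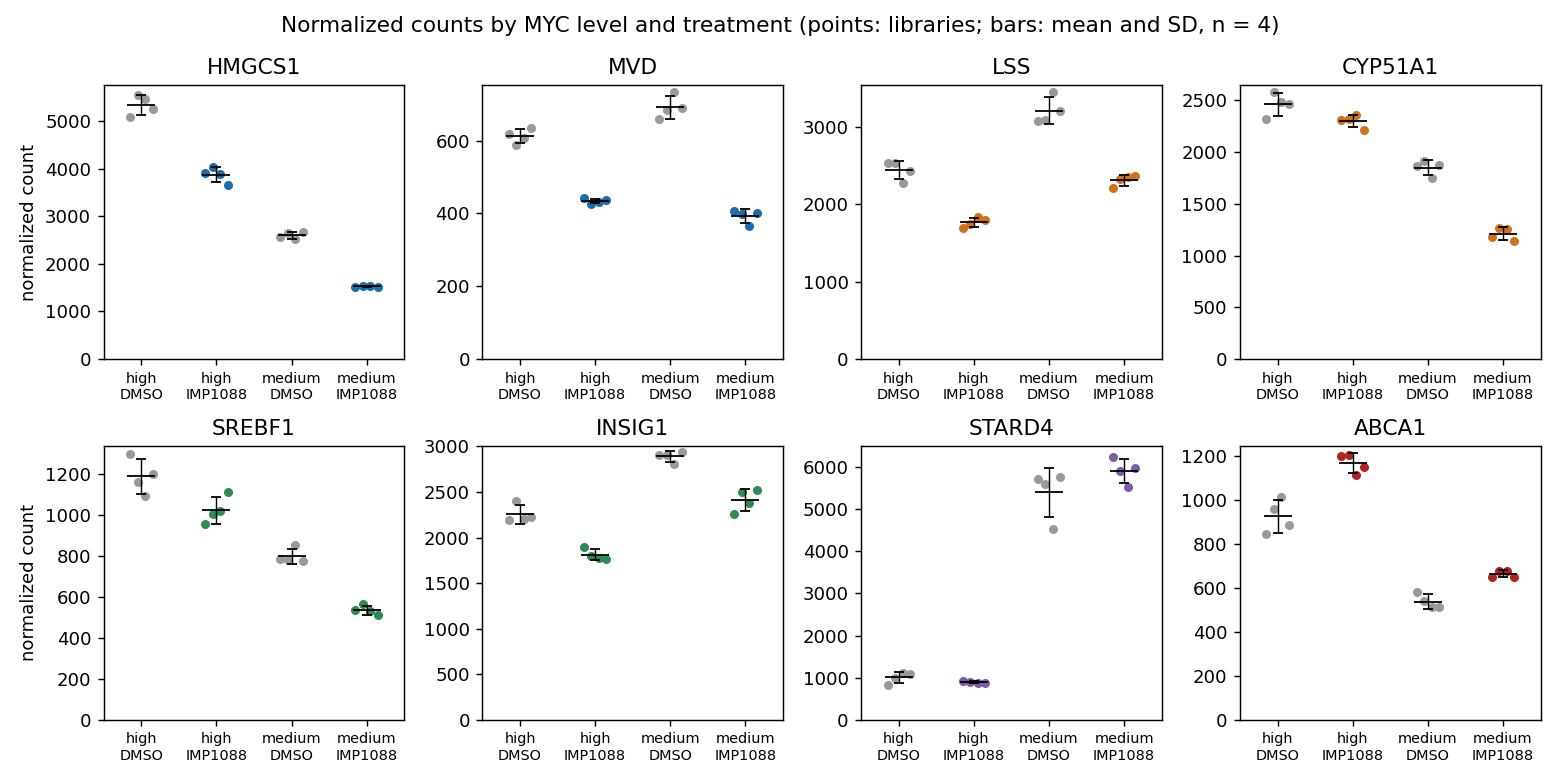
Normalized counts of 8 genes in the 4 groups on axes that start at 0, with points for libraries and bars for mean and SD (n = 4). HMGCS1 steps down in every group from left to right, and LSS falls with IMP1088 by 0.47 on the log2 scale at both levels. STARD4 separates the high from the medium MYC groups, which also differ in doxycycline and estradiol, while its DMSO and IMP1088 libraries overlap. ABCA1 rises with IMP1088 at either level.

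Genes of fatty acid synthesis that SREBP also drives gave a similar picture. Of 12 tested, 8 fell and 1 rose at high MYC and 11 fell and 1 rose at medium MYC. Their medians were -0.22 and -0.50, beside -0.32 and -0.49 for the 19 enzymes and -0.18 and -0.39 for all 31 genes. No test between these lists was made. Among all tested genes 16.3% were called lower and 10.5% higher at high MYC, and 14.6% and 11.7% at medium MYC. FADS2, a desaturase, fell by 0.51 and 0.74, and ACLY, which supplies cytosolic acetyl-CoA, by 0.43 and 0.52. SCD, the stearoyl desaturase, had -0.16 and -0.89, and its difference between levels of 0.72 (SE 0.04, limma adjusted p 1.26e-11) was larger than that of any of the 31 genes. FASN and ACACA had differences of 0.44 and 0.41. MID1IP1, an activator of acetyl-CoA carboxylase, was the gene that rose, by 0.31 and 0.13.

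Of 12 tested genes that process SREBP or degrade sterol sensors, 6 rose and 6 did not pass the test at high MYC, and 3 rose and 9 did not pass at medium MYC. Among all tested genes 10.5% and 11.7% were called higher. SEC24A and SEC23A, coat proteins of the vesicles that carry SCAP and much other cargo to the Golgi, rose by 0.37 and 0.25 at high MYC and by 0.46 and 0.31 at medium MYC (limma adjusted p between 1.36e-07 and 4.99e-04). SPRING1, a cofactor of the site-1 protease, rose by 0.20 at high MYC. MBTPS1, the site-1 protease that cuts SREBP, rose by 0.15 (SE 0.03, limma adjusted p 0.00233) at medium MYC.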

How the data were processed

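The authors deposited 1 table of normalized counts for the 16 libraries, a non-negative signal made by dividing gene counts by a size factor for each library. The submitters' processing notes name STAR 2.5.2a, RSEM 1.2.31, DESeq2 1.16.1 and GRCh38, with no role or order. Every value was a whole multiple of what 1 read is worth in its library (100% of values within 1e-06 reads), so whole reads were recovered. Symbols came from a table of gene names, positions from GENCODE release 29, and promoters from RefSeq. Log2 of the value plus 1 was fitted with limma 3.58.1 in R 4.3.3 with a mean trend, over 13765 genes averaging 10 or more, all 16 libraries in 1 fit with 4 group means and Benjamini-Hochberg adjustment over all genes. A log2 change on this scale understates changes of low genes. Calls are two-sided at 0.05. All 31 genes are named by rule. Of each further list, up to 4 called genes with the smallest adjusted p per comparison could be named. The genes and lists were chosen with earlier results of these data known. The fits were tested on simulated counts. Alternatives were 3 other scalings, other pseudocounts and filters, no mean trend, the compared groups alone, a replicate block, edgeR 4.0.16 and DESeq2 1.42.0 on recovered reads, and leaving out each library. No replicate pair of a group agreed within sampling noise (chi-square over its degrees of freedom, 1.68 to 9.95).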

Additional observations from a re-analysis of the deposited data

Results flagged for a closer look

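In 8 of 124 groups of 4 libraries, 1 library lay far from the other 3 by Dixon's 95% criterion on the gap over the range; chance flags about 1 in 20 groups. In medium MYC controls the third library was highest for SREBF1 (853.3) and SCAP (625.7) and lowest for STARD4 (4521), and the fourth was highest for HSD17B7 (369.3). The other distant libraries were the highest for INSIG1 in high MYC controls (2402), for ABCG1 with the inhibitor at high MYC (961.7) and for NSDHL with the inhibitor at medium MYC (270.2), and the lowest for LPIN1 with the inhibitor at high MYC (264.0).

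A difference in response between high and medium MYC was called in limma for 13 genes, as log2 change at high minus that at medium. The values were 0.5408 for MSMO1, 0.5165 for CYP51A1, 0.3921 for TMEM97, 0.3599 for SREBF1, 0.3346 for MVK, 0.3239 for FDFT1, 0.3204 for MVD, 0.3074 for FDPS, 0.3056 for SC5D, 0.3023 for DHCR7, 0.3018 for HMGCS1, 0.2649 for SQLE and 0.2457 for MYLIP.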

How the results depend on the processing

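The number of the 31 genes called in each comparison moved little. At high MYC the inhibitor changed 18 genes (17 to 19 over the alternatives other than left-out libraries, 17 to 20 when 1 library was left out). At medium MYC it changed 25 (24 to 25, and 24 to 26), and the difference in response 13 (12 to 14, and 11 to 14). Medium against high MYC gave 22 among controls (22 to 23, and 22 to 23) and 27 with the inhibitor (26 to 27, and 26 to 27). The replicate block gave 18, 25, 13, 22 and 26. Residuals of same-numbered libraries correlated at means from -0.0716 to 0.0242 with both signs among the pairs. Single pairs ran from -0.154 (inhibitor at high MYC) to 0.239 (medium against high MYC, controls). The labels do not say what same-numbered libraries share, and these correlations cannot settle it. Of 155 results by gene and comparison, 105 were called. Of these 97 kept the call in every alternative and 8 lost it in at least 1, and 11 others gained a call in at least 1. No called result changed sign, and 13 uncalled ones did. SREBF2, called lower at medium MYC with the inhibitor (-0.08, limma adjusted p 0.0318), was not called with the replicate block (0.0502), without the filter (0.0610) or without the mean trend (0.0713), nor without inhibitor library 3 at high MYC (0.12) or inhibitor library 1 (0.0515) or 3 (0.0922) at medium MYC; the cause was not tested. The effect of depth was not tested; TM7SF2, GGPS1 and INSIG2 had standard errors of 0.10 on the log2 scale.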

Other observations

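Enzymes that use isoprenoids for purposes other than sterols mostly did not pass the test. Of 10 tested, 2 rose and 1 fell at high MYC and 3 rose and 1 fell at medium MYC, where 26.8% and 26.3% of all tested genes were called, so these shares are near the background. RABGGTB, a subunit of the enzyme that attaches isoprenoids to Rab proteins, rose by 0.45 (SE 0.05, limma adjusted p 7.91e-07) and 0.19 (limma adjusted p 0.00626). NUS1, a subunit of the enzyme that starts dolichol synthesis, rose by 0.14 (limma adjusted p 0.0409) and 0.43 (limma adjusted p 8.46e-07), with a difference between levels of -0.29 (limma adjusted p 0.00939). COQ2, of ubiquinone synthesis, fell by 0.32 and 0.29.

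Among 16 tested genes of sterol transport, storage and nuclear receptors, 3 rose and 4 fell at high MYC and 2 rose and 3 fell at medium MYC, against the same 26.8% and 26.3%. RXRA, a partner of the LXR receptors, rose by 0.53 (limma adjusted p 0.00207) at high MYC and fell by 0.37 (limma adjusted p 0.0255) at medium MYC, a difference of 0.90 (SE 0.17, limma adjusted p 0.00125). RXRA was also higher at medium than at high MYC among controls, with a log2 change of 4.70. Its SE of 0.12 was the same at both levels, since the fit shares 1 spread over the 4 groups. The spread of the lower RXRA values at high MYC is therefore not given separately. Its relative RXRB rose by 0.15 and 0.20. LIPA, the lysosomal lipase that frees cholesterol, fell by 0.26 at high and 0.16 at medium MYC, and OSBP, a sterol carrier at membrane contacts, rose by 0.11 and 0.31.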
